A study of Mus musculus with 22 samples.

Results

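The 33 genes described here encode the contractile apparatus of the cardiomyocyte. They were chosen by gene symbol from the 48709 gene rows of each of 2 count tables. By role, 6 belong to the thick filament with titin and the myosin light chain kinase, 9 to the thin filament, 14 to the Z-disc and its periphery and 4 to the M-band. The counts come from poly(A) RNA of heart ventricles of mouse embryos at E13.5, in 18 libraries with 3 per genotype. All embryos carried Nkx2.5-Cre, which is active in cardiac precursor cells, on a C57/Bl6 background. In the first experiment, LIN9 KO ventricles (Lin9 fl/fl, with exon 7 of Lin9 flanked by loxP sites) were compared with LIN9 wt ventricles. The labels of that experiment give no Sav1 genotype, which is taken as wild-type here. The labels call LIN9 wt wild-type, whereas the study describes it as Lin9 fl/+, so that these controls may carry a single deleted allele. In the second experiment LIN9 wt Sav1 wt, LIN9 KO Sav1 wt, Sav1 KO (Sav1 fl/fl, with exon 3 of Sav1 floxed, and LIN9 wt) and double KO ventricles (both genes floxed on both alleles) were compared. The design asks how loss of LIN9, a subunit of the MuvB complex that activates cell cycle genes together with B-MYB, and loss of SAV1, a scaffold of the Hippo kinases that restrain the coactivator YAP, change expression in the embryonic heart. For LIN9 KO against LIN9 wt, the experiments themselves are described as the biological replicates, with triplicates within each. The p-values therefore measure the spread between the 3 libraries of a genotype within an experiment, which may be technical.

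A sarcomere is the unit of contraction between neighbouring Z-discs. Myosin thick filaments, held in register by the M-band, pull on actin thin filaments that are anchored in the Z-disc by alpha-actinin, and titin spans from the Z-disc to the M-band. Calcium switches contraction on through the troponin complex and tropomyosin on the thin filament. During heart development fetal isoforms such as the slow skeletal troponin I encoded by Tnni1 are later replaced by adult isoforms such as the cardiac troponin I encoded by Tnni3. Since the libraries were made from whole ventricles, fewer cardiomyocytes and less RNA per cardiomyocyte cannot be told apart where the level of a member is lower.

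Of the 33 genes, 28 had a mean count above 1 and could be tested in both experiments. The other 5 had a count of 0 in all 18 libraries: the cardiac and skeletal alpha-actins Actc1 (chr2:114047282-114053548 in mm10) and Acta1 (chr8:123891769-123894751), the cardiac troponin C gene Tnnc1 (chr14:31208312-31211729), the Xin repeat gene Xirp1 (chr9:120013755-120023598) and the myomesin gene Myom1 (chr17:71002633-71126856). In each of the 5, 100% of the exonic bases lay under another annotated gene. Among all protein-coding genes, 1205 of 1400 (86.1%) whose exons were wholly covered in this way had no count, against 2864 of 20295 (14.1%) of the rest. A count of 0 for these 5 genes therefore gives no level, and no share of Acta1 in the alpha-actins could be computed. Other genes were partly covered. The covered share of exonic bases was 75.3% for Myh7, 74.4% for Xirp2, 37.7% for Ttn, 32.6% for Tmod1, 31.4% for Cmya5 and 16.6% for Myl2. It was at most 9.8% for the remaining members that were tested. Levels per length below use only exonic bases that no other gene covers.

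Total counts per library ranged from 9485599 to 9615274 in the first and from 2770741 to 2999877 in the second experiment. Lin9 itself had a log2 fold change of -0.31 (adjusted p = 0.13) in LIN9 KO ventricles of the first experiment and fell in the second (-0.80, adjusted p = 0.0027), and Sav1 had a log2 fold change of -0.50 (adjusted p = 0.318) in Sav1 KO ventricles. In double KO ventricles Lin9 did not pass the test against Sav1 KO (-0.16, adjusted p = 0.586) or LIN9 wt Sav1 wt ventricles (-0.24, adjusted p = 0.386), with overlapping groups. The libraries labelled double KO measured 23.5, 26.1 and 18.5 CPM of Lin9, all above the 13.1, 15.4 and 17.9 CPM of LIN9 KO Sav1 wt libraries, while Sav1 fell in them against LIN9 wt Sav1 wt (-0.44, adjusted p = 0.00873). Counts per gene include exons outside the floxed ones and check the labels only in part, so that deletion of Lin9 in double KO ventricles rests on the labels. In the second experiment, replicate 1 of LIN9 wt Sav1 wt and replicate 1 of LIN9 KO Sav1 wt stood apart in base composition: log2 CPM tilted by 0.182 and 0.235 per 10 percentage points of exonic GC content, against -0.148 to 0.0838 in the other 16 libraries. Calls of members that change without these 2 libraries are given beside the members. Markers of other cells moved with the LIN9 genotype too and are described after the comparisons of LIN9.

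In LIN9 wt ventricles of the first experiment, the ventricular regulatory light chain Myl2 had the highest level per length (2835 ± 288 CPM per kb, mean and SD, n = 3), followed by the beta myosin heavy chain Myh7 (2333 ± 314 CPM per kb) and the essential light chain Myl3 (1362 ± 175 CPM per kb). The thin filament genes Tnnt2, Tnni1, Tpm1 and Tnni3 followed at 568 ± 39.6, 493 ± 29.9, 416 ± 24.4 and 345 ± 34.3 CPM per kb, with the myosin-binding protein C gene Mybpc3 at 494 ± 38.3 CPM per kb. Mybpc3 and Tnni1 differed by less than their SD. The highest Z-disc gene was Actn2 at 291 ± 23.2 CPM per kb. At the low end stood Ttn (14.6 ± 2.59 CPM per kb), Cmya5 (6.07 ± 0.142), the M-band gene Myom2 (1.06 ± 0.125) and Xirp2 (0.374 ± 0.0692), so that the last 2 contributed few counts. This order is that of the first experiment. In LIN9 wt Sav1 wt ventricles of the second, Myh7 (2859 ± 17.9 CPM per kb) stood above Myl2 (2635 ± 156 CPM per kb). Ttn measured 41.9 ± 15.9 CPM per kb there, near Myoz2 (41.9 ± 1.41) and Nebl (37.2 ± 15.4). Exonic length pools all annotated transcripts of a gene, which lowers the level per length of genes with many exons that the heart does not use.

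Promoter sequence is shown for 5 members that fell in every comparison of LIN9 and for the desmin gene Des. With wild-type Sav1, the levels of Des in LIN9 KO and LIN9 wt ventricles overlapped. RefSeq promoters (GRCm38.p6) matched 28 of the 33 genes, 5 having no entry, with 40 start sites in all. The 250 bases before each start were searched on both strands for a CHR element (TTTGAA or TTCGAA), through which MuvB complexes bind, for an MCAT element (CATTCC), to which TEAD factors bind, for a CArG box, which binds SRF, for a MEF2 site, and for a GATA element (AGATAA). A CArG box can hold bases of a MEF2 site, and overlapping matches were counted under both names. A CHR element was present in 6 of 28 member genes (21.4%) and in 19.6% of all 27025 genes, an MCAT element in 10 (35.7%) against 14.4%, a CArG box in 6 (21.4%) against 1.62%, a MEF2 site in 5 (17.9%) against 3.42%, and a GATA element in 7 (25%) against 11.4%. Shares per gene also rise with the number of start sites, which was 40 for 28 member genes and 32851 for all 27025 genes. Per window, a CHR element was present in 15% of member windows and 17.1% of all windows, while the other elements stayed more frequent in members. Of the genes with a CArG box, Acta1, Actc1 and Myom1 had no count. Matches are descriptions of letters in these windows, and the absence of a match says nothing about binding. The 6 windows below, 5′ to 3′ on the strand of the gene and ending at the base before the start, carry the matched letters in capitals, on whichever strand they lie. Mybpc3 and Synpo2l hold a MEF2 site that begins 90 and 109 bases before the start, Tnnt2 a GATA element at 166 and an MCAT element at 27 bases, Ldb3 a CArG box at 35 bases and Trim63 an MCAT element at 80 bases. These 5 genes were chosen among those with a match. Des holds none of the 5 elements, and neither do Actn2, Tnni1 and Tnni3, which fell in every comparison of LIN9. Des itself fell only in the Sav1 KO background. A match in these windows therefore did not separate members that fell in every comparison from Des.
Mybpc3 (chr2:91117894-91118143, plus strand): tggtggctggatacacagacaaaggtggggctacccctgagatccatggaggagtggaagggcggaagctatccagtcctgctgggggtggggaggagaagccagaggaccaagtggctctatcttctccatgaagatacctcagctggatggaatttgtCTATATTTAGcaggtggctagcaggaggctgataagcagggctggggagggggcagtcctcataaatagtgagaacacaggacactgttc
Tnnt2 (chr1:135836084-135836333, plus strand): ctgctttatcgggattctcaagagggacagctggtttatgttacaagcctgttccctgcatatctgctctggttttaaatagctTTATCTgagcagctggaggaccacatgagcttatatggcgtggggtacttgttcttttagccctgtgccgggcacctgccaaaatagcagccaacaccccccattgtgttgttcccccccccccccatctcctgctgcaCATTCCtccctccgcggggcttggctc
Ldb3 (chr14:34588682-34588931, minus strand): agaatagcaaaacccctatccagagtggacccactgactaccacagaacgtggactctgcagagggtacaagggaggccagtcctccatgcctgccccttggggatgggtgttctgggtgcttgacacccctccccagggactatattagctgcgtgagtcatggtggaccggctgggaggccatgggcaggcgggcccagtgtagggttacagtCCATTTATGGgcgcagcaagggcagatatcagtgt
Synpo2l (chr14:20668355-20668604, minus strand): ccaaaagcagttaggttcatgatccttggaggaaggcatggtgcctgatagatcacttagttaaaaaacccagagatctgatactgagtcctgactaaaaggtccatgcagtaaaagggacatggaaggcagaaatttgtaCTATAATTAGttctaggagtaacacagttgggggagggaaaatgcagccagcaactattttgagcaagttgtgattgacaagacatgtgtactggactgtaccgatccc
Trim63 (chr4:134314870-134315119, plus strand): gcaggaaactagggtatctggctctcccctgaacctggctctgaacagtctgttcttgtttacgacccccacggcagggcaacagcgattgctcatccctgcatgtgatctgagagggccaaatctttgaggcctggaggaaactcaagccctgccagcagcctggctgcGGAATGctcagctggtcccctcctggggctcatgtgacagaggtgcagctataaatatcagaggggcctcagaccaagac
Des (chr1:75360042-75360291, plus strand): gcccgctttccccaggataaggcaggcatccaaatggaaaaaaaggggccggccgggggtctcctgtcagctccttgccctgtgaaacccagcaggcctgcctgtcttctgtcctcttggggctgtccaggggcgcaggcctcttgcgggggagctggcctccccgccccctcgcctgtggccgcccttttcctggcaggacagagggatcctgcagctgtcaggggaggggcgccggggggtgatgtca

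Most of the measured sarcomere genes were lower in LIN9 KO than in LIN9 wt ventricles in both experiments. In the first experiment 17 of the 28 tested members fell and 1, Xirp2, rose (quasi-likelihood test of edgeR, adjusted by Benjamini-Hochberg over all genes tested), where 20.9% of all 19752 genes were called, 11.1% higher and 9.78% lower. In the second experiment, with wild-type Sav1, 20 fell and 1, Myom2, rose, where 23.2% of all 17675 genes were called, 12.8% higher and 10.5% lower. The median log2 fold change of the tested members was -0.76 in the first and -0.74 in the second experiment, beside 0.02 and 0.01 over all genes. All 17 members that fell in the first experiment were among the 20 that fell in the second, and these 2 comparisons share no library. In CPM the LIN9 KO libraries lay wholly below the LIN9 wt libraries for 22 members and wholly above for 2 in the first experiment, where 18.1% and 18.4% of all genes were separated in this way. These numbers were 21 below and 2 above in the second experiment, with 16.8% and 18.4% of all genes. Together the 33 genes took 3.10 to 3.20% of the counts in LIN9 wt and 1.59 to 1.92% in LIN9 KO libraries of the first experiment, and 3.38 to 3.45% against 1.68 to 1.97% in the second. By role, 5 of 6 thick filament genes, 5 of 6 thin filament genes, 5 of 13 Z-disc genes and 2 of 3 M-band genes fell in the first experiment. In the second, 5, 6, 7 and 2 fell.

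**Figure D1:**
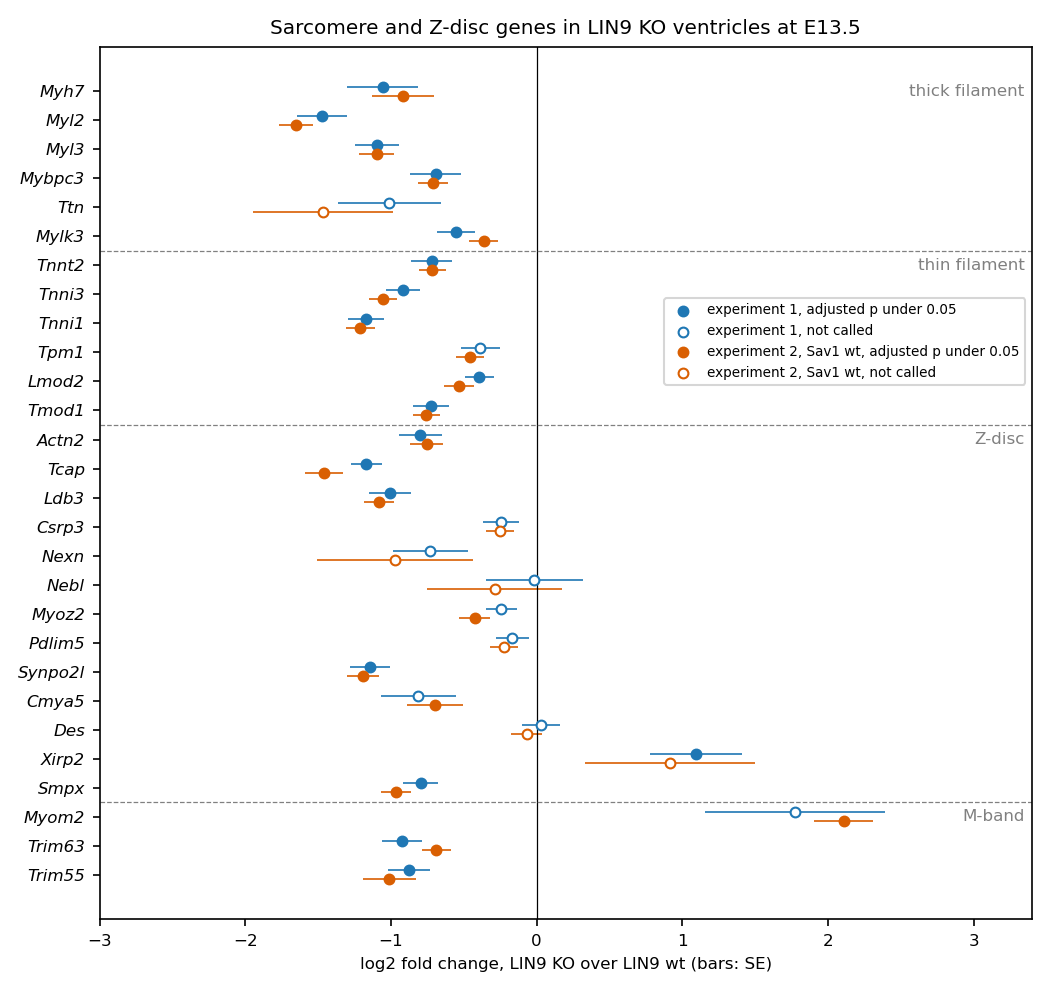
Log2 fold change of each of the 28 tested members in LIN9 KO over LIN9 wt ventricles (horizontal axis, bars are SE) in the first experiment (blue) and in the second with wild-type Sav1 (orange), grouped by place in the sarcomere, filled where the adjusted p was under 0.05. Most points lie left of 0 in both experiments, and Myom2 and Xirp2 lie right of it.

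Among thick filament genes, all 6 had negative fold changes in both experiments, and titin did not pass the test. Myl2 (ENSMUSG00000013936, chr5:122100951-122113472, plus strand), the regulatory light chain that marks ventricular cardiomyocytes, measured 4419, 4266 and 5142 CPM in LIN9 wt and 1750.2, 1261 and 1963 CPM in LIN9 KO libraries of the first experiment. In the second it measured 4575, 4108 and 4169.9 CPM with LIN9 wt and 1571, 1333 and 1187 CPM with LIN9 KO. The groups did not overlap, and Myl2 fell the most of the thick filament genes that passed the test (log2 fold change -1.48, SE 0.17, adjusted p = 3.06e-05 in the first experiment and log2 fold change -1.65, SE 0.12, adjusted p = 1.84e-10 in the second). The essential light chain Myl3 (ENSMUSG00000059741, chr9:110741861-110769798, plus strand) measured 2386, 2321 and 2915 CPM against 1223, 999 and 1347 CPM in the first experiment. Myl3 stood at 2416, 2169 and 2186 against 1282, 1037 and 844 CPM in the second experiment. It fell by a similar amount in both (log2 fold change -1.09, SE 0.15, adjusted p = 0.000131 and log2 fold change -1.10, SE 0.12, adjusted p = 2.28e-07), with every LIN9 KO library below every LIN9 wt library.

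The motor of the fetal ventricle, Myh7 (ENSMUSG00000053093, chr14:54970684-54994626, minus strand), measured 5097, 5566 and 4246 CPM in LIN9 wt and 2200.2, 3381 and 1583 CPM in LIN9 KO libraries of the first experiment, and 6047, 6119 and 6106 against 3981, 3353 and 2352 CPM in the second. It fell (log2 fold change -1.06, SE 0.24, adjusted p = 0.00958 and log2 fold change -0.92, SE 0.21, adjusted p = 0.011), with a wider spread among LIN9 KO libraries than the light chains showed. Mybpc3, which tunes cross-bridge cycling and whose promoter with a MEF2 site is printed, measured 2077, 2205 and 1888 against 1215, 1648 and 952 CPM in the first experiment. Mybpc3 stood at 2303, 2387 and 2421 against 1688, 1364 and 1293 CPM in the second experiment. It fell without overlap (log2 fold change -0.69, SE 0.18, adjusted p = 0.0111 and log2 fold change -0.71, SE 0.11, adjusted p = 9.52e-06), although its adjusted p in the first experiment was 0.0558 without LIN9 wt replicate 2. Mylk3, the cardiac kinase of the regulatory light chain, measured 293, 320.2 and 282 against 197, 245 and 168 CPM in the first experiment. Mylk3 stood at 305, 309 and 278 against 252, 207 and 235 CPM. It fell the least of the thick filament genes (log2 fold change -0.55, SE 0.13, adjusted p = 0.00717 and log2 fold change -0.36, SE 0.10, adjusted p = 0.00728). The giant spring protein gene Ttn measured 1269, 902 and 1009 against 504, 781 and 295 CPM in the first experiment. Ttn stood at 1714, 3689.5 and 3743 against 571, 816 and 1924 CPM in the second experiment. Its groups overlapped in the second, where replicate 1 of LIN9 wt was far below the other 2, and it did not pass (log2 fold change -1.01, SE 0.35, adjusted p = 0.105 and log2 fold change -1.47, SE 0.48, adjusted p = 0.0627). Without LIN9 KO replicate 2 or replicate 3 of the first experiment its adjusted p was 0.00496 and 0.0179, and without LIN9 wt replicate 1 or LIN9 KO replicate 3 of the second it was 0.0419 and 0.00747. Ttn passed in the second experiment once the replicate number was fitted as a block (-1.53, adjusted p = 0.0127) and in DESeq2 (adjusted p = 0.0132). The labels do not state that replicate numbers pair these libraries.

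The 3 measured troponin genes of the thin filament fell in both experiments. Tnni1 (ENSMUSG00000026418, chr1:135779434-135810989, plus strand), the fetal troponin I, measured 1660.0, 1792 and 1874 CPM in LIN9 wt against 778, 794 and 795 CPM in LIN9 KO libraries of the first experiment and 1792, 1526 and 1605 against 779.6, 649.8 and 696 CPM in the second. Its 3 LIN9 KO libraries in the first experiment lay close together, far below the controls, and it fell the most of the thin filament genes (log2 fold change -1.17, SE 0.12, adjusted p = 1.31e-05 and log2 fold change -1.21, SE 0.10, adjusted p = 5.98e-10). Tnni3 (ENSMUSG00000035458, chr7:4518305-4524229, minus strand), the adult troponin I, measured 639, 646 and 759.7 against 352, 369 and 362 CPM in the first experiment. Tnni3 stood at 666, 565 and 565 against 305, 275 and 286 CPM in the second experiment. It fell too, without overlap (log2 fold change -0.92, SE 0.12, adjusted p = 6.37e-05 and log2 fold change -1.05, SE 0.10, adjusted p = 5.01e-09). Tnnt2, the cardiac troponin T that ties the troponin complex to tropomyosin and is a common marker of cardiomyocytes, measured 4327, 4145 and 4743 against 2604, 2851 and 2561 CPM in the first experiment. Tnnt2 stood at 4347, 4205 and 4237 against 2721, 2649 and 2417 CPM. The fall of Tnnt2 was nearly the same in both experiments (log2 fold change -0.72, SE 0.14, adjusted p = 0.00169 and log2 fold change -0.72, SE 0.09, adjusted p = 9.74e-07).

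The genes that set the length of the thin filament fell as well. Tmod1, which caps its pointed end, measured 209.6, 225 and 209 CPM against 122, 154 and 112 CPM in the first experiment. Tmod1 stood at 225, 217 and 205 against 129, 128 and 127 CPM in the second experiment. Its LIN9 KO libraries were all below the controls (log2 fold change -0.73, SE 0.12, adjusted p = 0.000576 and log2 fold change -0.76, SE 0.09, adjusted p = 7.08e-07). Lmod2, a leiomodin that elongates the filament at the same end, measured 99.4, 110.0 and 102 against 73.9, 86.0 and 77.4 CPM in the first experiment. Lmod2 stood at 127, 108 and 113 against 86.4, 77.1 and 76.4 CPM. It fell less (log2 fold change -0.39, SE 0.10, adjusted p = 0.0111 and log2 fold change -0.53, SE 0.10, adjusted p = 0.00036), and in the first experiment its adjusted p was 0.0567 without LIN9 wt replicate 2 and 0.0654 without LIN9 KO replicate 1. The alpha-tropomyosin gene Tpm1, whose product lies along the actin strand, measured 2533, 2849 and 2703 against 1937, 2235 and 2011 CPM in the first experiment. Tpm1 stood at 2768, 2501 and 2473 against 2082, 1776 and 1783 CPM in the second experiment. Tpm1 passed the test only in the second (log2 fold change -0.39, SE 0.13, adjusted p = 0.0519 and log2 fold change -0.46, SE 0.09, adjusted p = 0.000641), although its groups were apart in both. In the first experiment Tpm1 passed in 8 of 16 alternatives, with adjusted p-values of 0.00359 in DESeq2, 0.00736 with the replicate block and 0.0441 without a filter on low counts. Replicate numbers did not pair the genotypes of that experiment.

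**Figure D2:**
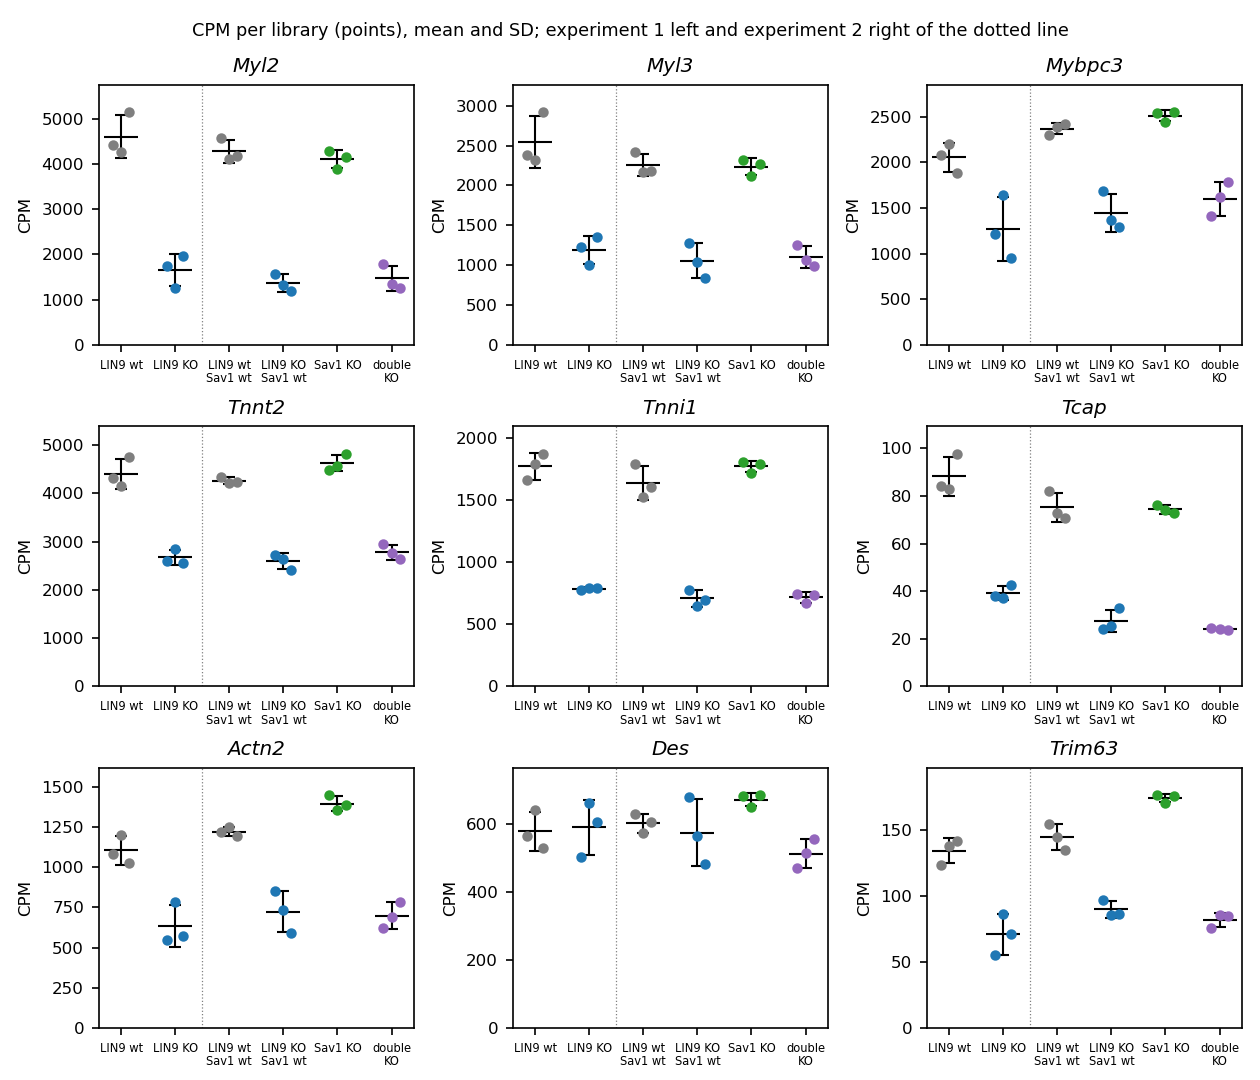
CPM of 9 members in every library (vertical axis, points) by genotype, with mean and SD (bars, n = 3), the first experiment left and the second right of the dotted line. Apart from Des, whose groups overlap in the first experiment and in the second with wild-type Sav1, the LIN9 KO and double KO libraries lie below the libraries with LIN9 wt. Sav1 KO libraries lie near LIN9 wt Sav1 wt libraries, but wholly above them for Mybpc3, Tnnt2, Actn2, Des and Trim63.

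At the Z-disc the response was uneven. Tcap (ENSMUSG00000007877, chr11:98383811-98384953, plus strand), the telethonin that joins the ends of neighbouring titin molecules, measured 84.3, 82.8 and 97.7 CPM in LIN9 wt and 38.0, 37.1 and 42.6 CPM in LIN9 KO libraries of the first experiment, and 82.1, 73.0 and 70.6 against 24.3, 25.3 and 32.8 CPM in the second. It fell the most of the Z-disc genes (log2 fold change -1.17, SE 0.11, adjusted p = 4.5e-06 and log2 fold change -1.46, SE 0.13, adjusted p = 2.24e-09). Synpo2l (ENSMUSG00000039376, chr14:20658946-20668354, minus strand), an actin-binding Z-disc protein of the synaptopodin family whose promoter with a MEF2 site is printed, measured 409.6, 463 and 454 against 189, 247 and 164 CPM in the first experiment. Synpo2l stood at 448, 396 and 407 against 209, 163 and 175 CPM. Every LIN9 KO library was below the controls (log2 fold change -1.14, SE 0.14, adjusted p = 4.71e-05 and log2 fold change -1.19, SE 0.11, adjusted p = 5.73e-09). Ldb3, the PDZ and LIM protein also called ZASP or cypher, which binds alpha-actinin and whose promoter with a CArG box is printed, measured 674, 742 and 725 against 345, 437 and 286 CPM in the first experiment. Ldb3 stood at 747, 763 and 746 against 389, 325 and 353 CPM in the second experiment. Its groups were apart and it fell (log2 fold change -1.0, SE 0.14, adjusted p = 0.000167 and log2 fold change -1.08, SE 0.10, adjusted p = 5.82e-09).

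Actn2, the alpha-actinin that crosslinks actin in the Z-disc, measured 1084, 1201 and 1028 CPM against 548, 785 and 572 CPM in the first experiment. Actn2 stood at 1220.4, 1252 and 1191 against 849, 730.2 and 590.2 CPM in the second experiment. It fell (log2 fold change -0.80, SE 0.15, adjusted p = 0.00119 and log2 fold change -0.76, SE 0.11, adjusted p = 9.79e-06), as did Smpx, a small muscle protein of the costamere and Z-disc periphery. Smpx measured 332, 353 and 429.7 against 204, 208 and 230.4 CPM and then 332, 325 and 302 against 180.4, 156 and 154 CPM (log2 fold change -0.80, SE 0.12, adjusted p = 0.000263 and log2 fold change -0.97, SE 0.10, adjusted p = 8.01e-08), with no overlap. Myoz2, a calsarcin that tethers calcineurin to the Z-disc, measured 153, 148 and 173 against 136, 123 and 141 CPM in the first experiment. Myoz2 stood at 149, 143 and 139 against 119.6, 102 and 98.8 CPM in the second experiment. It passed the test in the second (log2 fold change -0.42, SE 0.11, adjusted p = 0.00402) and did not in the first (log2 fold change -0.24, SE 0.10, adjusted p = 0.123), where it passed with the replicate block (adjusted p = 0.0475). Cmya5, or myospryn, measured 49.5, 50.4 and 48.1 against 23.7, 41.4 and 19.1 CPM in the first experiment. Cmya5 stood at 58.8, 71.9 and 74.4 against 31.2, 41.3 and 54.4 CPM. It also passed in the second only (log2 fold change -0.81, SE 0.26, adjusted p = 0.0649 and log2 fold change -0.70, SE 0.19, adjusted p = 0.0153), with adjusted p-values of 0.0508 without LIN9 wt Sav1 wt replicate 2, 0.0601 without its replicate 3 and 0.052 without LIN9 KO Sav1 wt replicate 2. In the first experiment Cmya5 passed in 5 of 15 alternatives, with adjusted p-values of 1.14e-05 without LIN9 KO replicate 2, 0.00135 in DESeq2, 0.0427 with the filter of edgeR on low counts, 0.0273 with the replicate block and 0.0327 with block and GC offsets. For Myoz2 and Cmya5 too, replicate numbers did not pair the genotypes of the first experiment.

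The other 6 tested genes of the Z-disc and its periphery included the muscle intermediate filament gene Des, which links Z-discs to one another. Des measured 563, 642 and 531 CPM in LIN9 wt and 503, 661 and 605 CPM in LIN9 KO libraries of the first experiment, and 629, 573 and 606 against 679, 563 and 481 CPM in the second. These groups overlapped, and Des did not pass in either (log2 fold change 0.03, SE 0.13, adjusted p = 0.91 and log2 fold change -0.07, SE 0.11, adjusted p = 0.714). The muscle LIM protein gene Csrp3, the actin-binding genes Nexn and Nebl and the PDZ-LIM gene Pdlim5 did not pass either, with log2 fold changes of -0.24, -0.73, -0.02 and -0.17 in the first and -0.25, -0.97, -0.29 and -0.22 in the second experiment. In the second, Csrp3 passed in 14 of 23 alternatives, among them the replicate block (-0.25, adjusted p = 0.039) and DESeq2 (-0.26, adjusted p = 0.0444). In the first, Nexn passed in 4 of 15 alternatives, with adjusted p-values of 0.002 in DESeq2, 0.0141 with GC offsets, 0.0189 without LIN9 wt replicate 2 and 0.0414 without LIN9 KO replicate 2. Nexn and Nebl varied widely within genotypes. Nexn measured 229, 614 and 669 CPM in LIN9 wt Sav1 wt and 90.4, 359 and 322 CPM in LIN9 KO Sav1 wt libraries, with both replicate 1 libraries the lowest of their group, and without these 2 libraries it fell (log2 fold change -0.92, adjusted p = 0.000642). Pdlim5 passed without them (-0.28, adjusted p = 0.0437) and in 3 of 23 alternatives in all. Xirp2, an actin-binding Xin repeat gene, was near the floor with 0.927, 1.16 and 1.35 CPM in LIN9 wt against 3.04, 1.89 and 2.47 CPM in LIN9 KO libraries of the first experiment, where it rose (log2 fold change 1.09, SE 0.32, adjusted p = 0.022). Leaving out LIN9 wt replicate 1, LIN9 wt replicate 2 or LIN9 KO replicate 1 raised this adjusted p to 0.093, 0.0619 and 0.0907, and DESeq2 gave 0.0777. Xirp2 in the second experiment measured 0.665, 1.03 and 2.08 against 2.3, 2.62 and 2.24 CPM and did not pass (log2 fold change 0.92, SE 0.58, adjusted p = 0.287).

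Of the M-band genes, Trim63 and Trim55 fell and Myom2 was higher in LIN9 KO ventricles. Trim63 (ENSMUSG00000028834, chr4:134315120-134329629, plus strand), the ubiquitin ligase MuRF1 that turns over sarcomere proteins and whose promoter with an MCAT element is printed, measured 124, 138 and 142 CPM in LIN9 wt and 55.4, 86.4 and 71.0 CPM in LIN9 KO libraries of the first experiment, and 155, 145 and 135 against 97.3, 85.9 and 86.5 CPM in the second. It fell without overlap (log2 fold change -0.92, SE 0.14, adjusted p = 0.000329 and log2 fold change -0.69, SE 0.10, adjusted p = 8.2e-06). Trim55, the related MuRF2, measured 481, 391 and 439.8 against 229, 292 and 192 CPM in the first experiment. Trim55 stood at 428, 658 and 645 against 218, 293 and 348 CPM. Its groups were apart in both experiments and it fell (log2 fold change -0.88, SE 0.15, adjusted p = 0.000601 and log2 fold change -1.01, SE 0.18, adjusted p = 0.00153). Myom2 (ENSMUSG00000031461, chr8:15057653-15133541, plus strand), which encodes the M-protein of fast and adult muscle, measured 8.14, 10.0 and 10.1 against 15.8, 59.8 and 21.1 CPM in the first experiment. Myom2 stood at 13.0, 12.7 and 10.7 against 45.4, 56.7 and 55.2 CPM in the second experiment. Every LIN9 KO library lay above the controls, with replicate 2 of the first experiment far above the other 2. Myom2 rose in the second experiment (log2 fold change 2.11, SE 0.21, adjusted p = 8.84e-08) and did not pass in the first (log2 fold change 1.78, SE 0.62, adjusted p = 0.128), where its adjusted p was 0.0185 in DESeq2, 0.0312 without LIN9 KO replicate 1 and 0.00107, at a log2 fold change of 0.97, without LIN9 KO replicate 2.

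The members were also expressed relative to Tnnt2 in the same library, a comparison chosen after the data had been seen. In the first experiment the ratio to Tnnt2 was below all LIN9 wt libraries in every LIN9 KO library for 6 of 27 members and above for 8, where 1.48% and 68.5% of all genes were separated in these directions. In the second experiment, with wild-type Sav1, 8 of 26 were below and 7 above (1.29% and 62.2% of all genes). Xirp2 was left out there because a library of that experiment held no count of it. The log2 ratio of Myl2 to Tnnt2 differed by -0.77 and -0.94 in LIN9 KO libraries of the first and second experiment, that of Tcap by -0.45 and -0.75, that of Tnni1 by -0.45 and -0.49 and that of Synpo2l by -0.44 and -0.48, all lower without overlap. The ratio of Mybpc3 to Tnnt2 differed by -0.01 and -0.00, with overlapping groups. Des, Csrp3, Myoz2 and Pdlim5 were higher relative to Tnnt2, by 0.74, 0.47, 0.48 and 0.55 in the first and by 0.64, 0.47, 0.29 and 0.50 in the second experiment. A change relative to Tnnt2 shows that these genes moved unequally and does not show which of them moved.

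Myosin and troponin isoforms of the fetal and adult heart were compared as shares per exonic length, which do not depend on library scaling. Tnni1 made up 58.8, 60.4 and 57.5% of Tnni1 plus Tnni3 in LIN9 wt and 54.8, 54.1 and 54.7% in LIN9 KO libraries of the first experiment. In the second it made up 59.7, 59.7 and 60.9% in LIN9 wt Sav1 wt, 58.4, 56.5 and 57.2% in LIN9 KO Sav1 wt, 62.2, 63.3 and 61.2% in Sav1 KO and 57.5, 56.2 and 58.2% in double KO libraries. Within each experiment the fetal share was lower in every LIN9 KO library than in every LIN9 wt library, with differences of -4.37 and -2.72 percentage points with wild-type Sav1 (exact permutation test, two-sided, p = 0.1 each, adjusted p = 0.15 over 12 comparisons). With 3 against 3 libraries 0.1 is the smallest p this test can give. Tnni1 was 2.09 points higher in Sav1 KO than in LIN9 wt Sav1 wt libraries (exact p = 0.1, adjusted 0.15), and double KO and LIN9 KO Sav1 wt libraries overlapped (exact p = 1.0).

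Myh7 made up 88.7, 86.7 and 89.1% of Myh6 plus Myh7 in LIN9 wt and 87.2, 77.5 and 84.8% in LIN9 KO libraries of the first experiment. The alpha heavy chain Myh6, which is not among the 33 genes and becomes the main ventricular heavy chain of the adult mouse, measured 1980.5, 2599 and 1587 CPM and 990.4, 3006 and 868 CPM there, with LIN9 KO replicate 2 above all others, and did not pass the test (log2 fold change -0.34, SE 0.57, adjusted p = 0.754). In the second experiment the Myh7 share was 87.9, 87.6 and 87.7% in LIN9 wt Sav1 wt and 86.3, 85.7 and 77.6% in LIN9 KO Sav1 wt libraries. The share differed by -5.05 points in the first (exact permutation test, two-sided, p = 0.2) and by -4.52 points in the second experiment (exact p = 0.1, adjusted 0.15 over the same 12 comparisons), and a single LIN9 KO library in each set most of the difference. Without LIN9 KO replicate 2 of the first experiment it was -2.22 points, and without LIN9 KO Sav1 wt replicate 3 of the second -1.74 points. As shares of raw counts, not divided by length, the differences were -8.83 and -7.82 points.

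**Figure D3:**
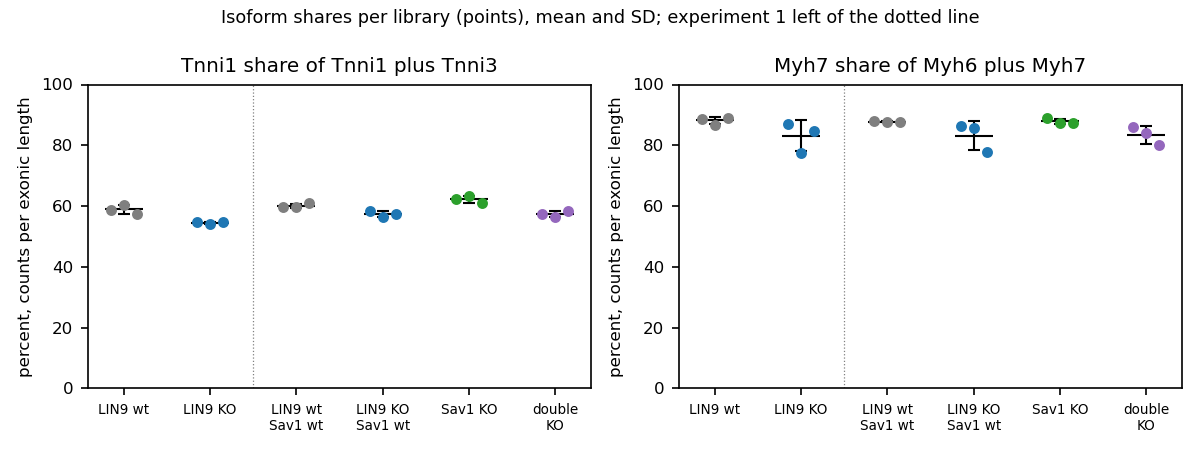
Share of Tnni1 in Tnni1 plus Tnni3 (left) and of Myh7 in Myh6 plus Myh7 (right), in percent of counts per exonic length, in every library (points) with mean and SD (bars, n = 3), the first experiment left of the dotted line. The Tnni1 share lies at 54.1 to 54.8% in LIN9 KO and at 57.5 to 60.4% in LIN9 wt libraries of the first experiment, and the Myh7 share is lowest in single libraries with LIN9 KO.

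Markers of several other cell types were higher in the same LIN9 KO libraries. The summed CPM of 15 erythroid genes was 7930.5 to 10980.3 in LIN9 wt and 34929 to 90941 in LIN9 KO libraries of the first experiment, with 12 of 14 tested genes higher, and 4273 to 5359 against 21252 to 39116 in the second, with 14 of 14 higher. Alas2 of this list was at 0. Of 9 fibroblast and cushion mesenchyme genes, 8 rose in each experiment. Their sum was 2325 to 2648 in LIN9 wt and 4806 to 5199 CPM in LIN9 KO libraries in the first and 3026 to 3254 against 5414 to 6795 CPM in the second. Of 8 epicardial genes, 7 rose in each, with sums of 322 to 344 against 591 to 696 CPM and of 296 to 307 against 565 to 633 CPM. Of 8 macrophage genes, 7 and 5 rose, and they summed to 109 to 115 against 205 to 216 CPM and to 116 to 126 against 206 to 236 CPM. The sum of 12 cardiomyocyte transcription factor genes overlapped between genotypes (1859.8 to 1969.6 against 1833 to 1938 CPM in the first and 2066 to 2215 against 1999 to 2129.6 CPM in the second experiment, Srf at 0), while of its 11 tested genes 4 fell and 1 rose in the first and 2 fell and 1 rose in the second, Nkx2-5 falling in both (-0.65 and -0.52). Atrial cardiomyocyte genes summed to 3194 to 4127 against 4259.6 to 5392 CPM and to 3138 to 3609 against 4225 to 4934 CPM, with 2 and 3 of 10 genes higher and none lower. Endothelial and endocardial genes summed to 1142 to 1462 against 1347 to 1780.2 CPM and to 1263 to 1296 against 1387 to 1582 CPM, with 4 of 12 higher and 1 lower in each. The ventricular list holds Myl2 and Myl3 of the members beside the transcription factor genes Irx3, Irx4, Irx5, Hey2 and Mycn and the phospholamban gene Pln, which was at 0. In LIN9 wt replicate 1 of the first experiment, Myl2 and Myl3 held 4419 and 2386 CPM of its sum of 7183 CPM. The ventricular sum therefore mostly repeats the values of these 2 members. Of the 7 tested genes of this list, 7 and 6 fell. The part of these shifts in the fall of the sarcomere genes was not tested.

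**Figure D4:**
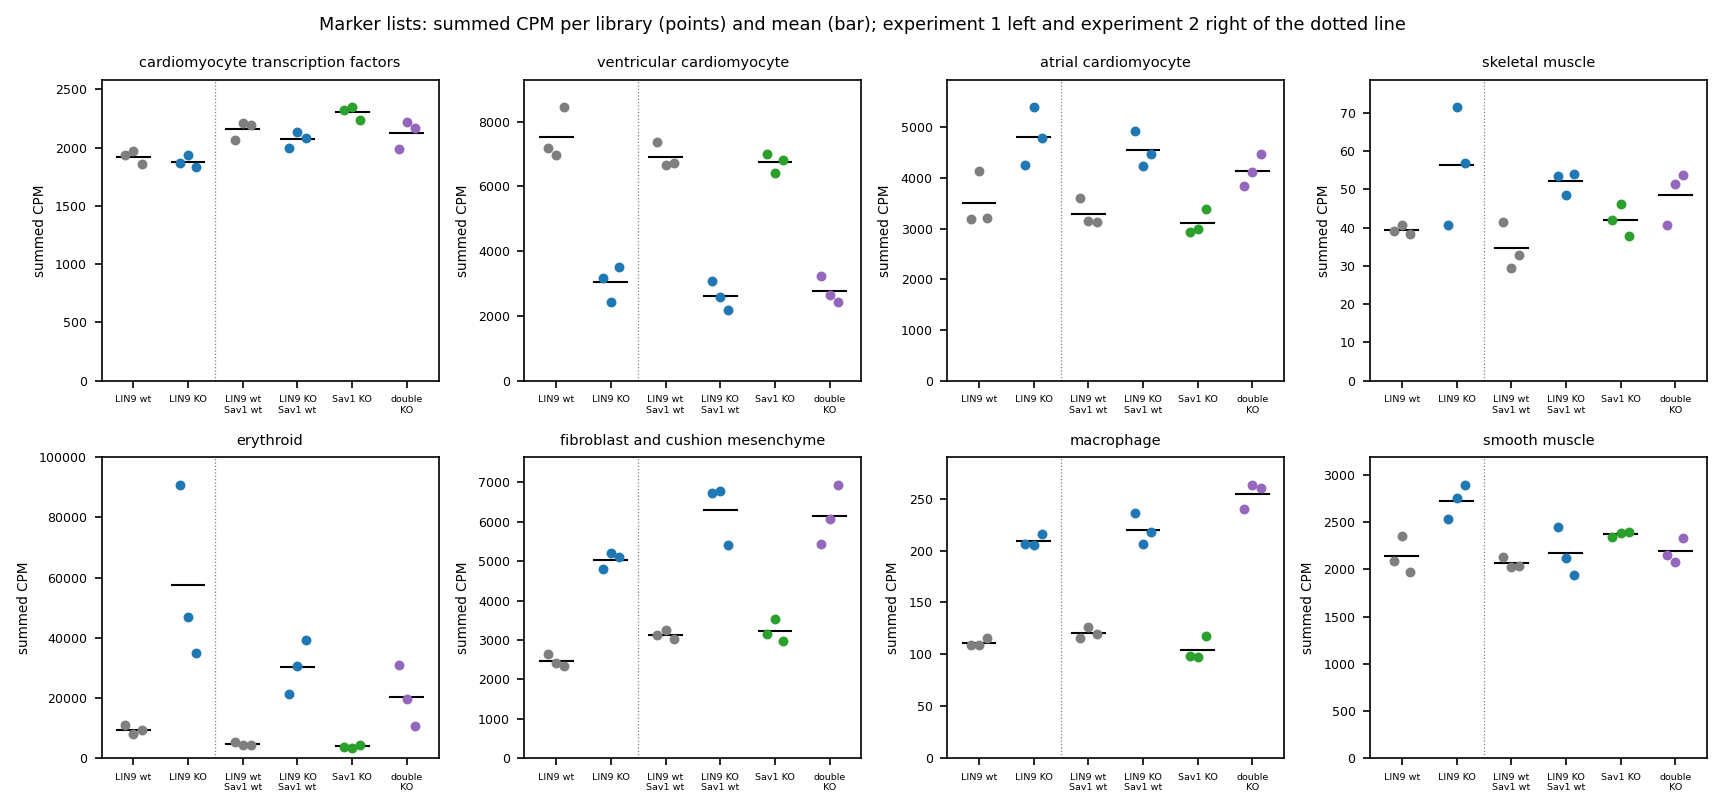
Summed CPM of 8 marker lists in every library (points) with the mean (bar) by genotype, the first experiment left and the second right of the dotted line. Erythroid, fibroblast and macrophage sums lie higher in every library with LIN9 KO, including double KO, than in every library with LIN9 wt of the same experiment. The ventricular list, whose sum is mostly from the members Myl2 and Myl3, lies lower. The cardiomyocyte transcription factor sums overlap between LIN9 wt and LIN9 KO with wild-type Sav1.

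No member passed the threshold between Sav1 KO and Sav1 wt ventricles in either LIN9 background. With LIN9 wt, 0 members were called (1 at an unadjusted p under 0.05 in edgeR, Trim63), where 0.0170% of all genes were called, 0.0113% higher and 0.00566% lower, and DESeq2 also called 0. Their median log2 fold change was 0.11, beside 0.00 over all genes. Sav1 KO libraries lay wholly above the LIN9 wt Sav1 wt libraries for 11 members and wholly below for 0, where 5.97% and 6.14% of all genes were separated in this way. Actn2 was among them with 1446, 1355 and 1384 CPM in Sav1 KO against 1220.4, 1252 and 1191 CPM (log2 fold change 0.19, SE 0.11, adjusted p = 0.999). The ligase gene Trim63 measured 176, 171 and 176 CPM in Sav1 KO against 155, 145 and 135 CPM (log2 fold change 0.27, SE 0.10, adjusted p = 0.999). Ldb3 measured 839, 824 and 829 against 747, 763 and 746 CPM (log2 fold change 0.14, SE 0.10, adjusted p = 0.999). Myl2 overlapped with 4291, 3900.5 and 4149.9 against 4575, 4108 and 4169.9 CPM (log2 fold change -0.06, SE 0.12, adjusted p = 0.999). The 33 genes took 3.59 to 3.72% of the counts in Sav1 KO libraries, above the 3.38 to 3.45% of LIN9 wt Sav1 wt libraries. Of the marker lists, the cardiomyocyte transcription factor sum (2240.4 to 2345 against 2066 to 2215 CPM) and the smooth muscle sum (2346 to 2399 against 2026 to 2132 CPM) were higher in Sav1 KO libraries without overlap, and the endothelial and endocardial sum was lower (1100.5 to 1179 against 1263 to 1296 CPM), with 0 genes of these lists called. Their part in the members' values was not tested.

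With LIN9 KO, deletion of Sav1 left 0 members called as well (2 at an unadjusted p under 0.05, Smpx and Trim55), where 0.0113% of all genes were called, with a median of 0.06 beside 0.00 over all genes. Double KO libraries were wholly below LIN9 KO Sav1 wt libraries for 1 member, Trim63, and wholly above for 2, where 7.88% and 7.2% of all genes were separated. Trim55 measured 359.9, 421 and 387 CPM in double KO against 218, 293 and 348 CPM in LIN9 KO Sav1 wt libraries (log2 fold change 0.44, SE 0.18, adjusted p = 0.371). It passed without a filter on low counts (log2 fold change 0.45, adjusted p = 0.00665), with the replicate block (0.46, adjusted p = 0.0482) and with block and GC offsets together (0.48, adjusted p = 0.0227). The replicate number did not pair double KO with LIN9 KO Sav1 wt libraries. Smpx measured 226, 179 and 174 against 180.4, 156 and 154 CPM, with overlap (log2 fold change 0.24, SE 0.11, adjusted p = 0.375).

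In the Sav1 KO background, most members were again lower in LIN9 KO ventricles. Of 28 members, 20 fell and 1, Myom2, rose, where 23.4% of all genes were called, 11.8% higher and 11.6% lower, and the median log2 fold change was -0.73 beside 0.03 over all genes. Double KO libraries lay wholly below Sav1 KO libraries for 23 members and above for 2, against 19.2% and 21.9% of all genes. Myl2 measured 4291, 3900.5 and 4149.9 CPM in Sav1 KO and 1789.8, 1357 and 1264 CPM in double KO libraries. It fell without overlap (log2 fold change -1.48, SE 0.12, adjusted p = 8.81e-10). Tcap measured 76.4, 74.3 and 72.7 against 24.5, 24.3 and 23.8 CPM, with the 3 double KO libraries close together (log2 fold change -1.62, SE 0.13, adjusted p = 4.26e-10). Tnni1 measured 1805, 1722 and 1790.4 against 747, 670.2 and 733 CPM and fell without overlap (log2 fold change -1.31, SE 0.10, adjusted p = 1.5e-10). Des, which did not pass with wild-type Sav1, fell here from 681, 650.0 and 684 to 469, 513 and 555 CPM (log2 fold change -0.39, SE 0.11, adjusted p = 0.0081). So did Csrp3, from 588, 624 and 591 to 495, 415 and 481 CPM (log2 fold change -0.37, SE 0.10, adjusted p = 0.00442). The log2 fold changes of the other members that fell were -1.15 for Myh7, -1.02 for Myl3, -0.65 for Mybpc3, -0.39 for Mylk3, -0.74 for Tnnt2, -1.02 for Tnni3, -0.61 for Tpm1, -0.55 for Lmod2, -0.89 for Tmod1, -1.0 for Actn2, -1.13 for Ldb3, -1.26 for Synpo2l, -0.68 for Smpx, -1.09 for Trim63 and -0.94 for Trim55. Myom2 measured 15.1, 16.9 and 18.4 CPM in Sav1 KO and 33.4, 59.2 and 62.6 CPM in double KO libraries (log2 fold change 1.62, SE 0.20, adjusted p = 1.92e-06). Summed erythroid genes were at 3354 to 4396 CPM in Sav1 KO and at 10724 to 30912 CPM in double KO libraries. Fibroblast and cushion mesenchyme genes summed to 2969.5 to 3531 against 5436 to 6947 CPM, with 9 of 9 genes higher. Epicardial sums stood at 269 to 311 against 508 to 555 CPM and macrophage sums at 96.9 to 118 against 240.3 to 264 CPM, with 7 of 8 genes higher in each list. Atrial cardiomyocyte sums were higher too (2938 to 3394 against 3840 to 4480 CPM, 3 of 10 genes higher and 0 lower). Endothelial and endocardial sums were higher (1100.5 to 1179 against 1256 to 1506 CPM) and smooth muscle sums lower (2346 to 2399 against 2083 to 2332 CPM). The cardiomyocyte transcription factor sum was lower without overlap here, at 2240.4 to 2345 in Sav1 KO and 1986 to 2217 CPM in double KO libraries, with 3 of 11 tested genes lower. The part of these shifts in the differences of the members was not tested. Nexn (-0.92) and Cmya5 (-0.53) did not pass in this comparison. Without replicate 1 of LIN9 wt Sav1 wt and of LIN9 KO Sav1 wt, which belong to neither group of this comparison but enter the shared fit, both passed (Nexn -0.92, adjusted p = 6.49e-05 and Cmya5 -0.54, adjusted p = 0.00255). Cmya5 passed in 9 of 22, Myoz2 in 2 of 23 and Xirp2 in 1 of 21 alternatives.

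Against LIN9 wt Sav1 wt, double KO ventricles showed 18 members lower and 1, Myom2, higher, where 20.6% of all genes were called, 10.7% higher and 9.96% lower. Double KO libraries lay wholly below the controls for 21 members and above for 1, against 17.6% and 19.8% of all genes. The median log2 fold change was -0.59 beside 0.03 over all genes, and the 33 genes took 1.90 to 2.05% of the counts. This comparison shares its control libraries with the LIN9 comparison in wild-type Sav1 and its double KO libraries with that in Sav1 KO. Side by side, Myl2 changed by -1.65 in LIN9 KO Sav1 wt and -1.54 in double KO, Tcap by -1.46 and -1.63, Tnni1 by -1.21 and -1.20, Myh7 by -0.92 and -0.99, Actn2 by -0.76 and -0.81 and Trim55 by -1.01 and -0.57. Trim55 was the least secure of these, with an adjusted p of 0.0433 that lay between 0.0513 and 0.123 when any of 8 of the 12 libraries was left out. It passed in 12 of 23 alternatives in all. Its adjusted p was 0.072 when scaled without sarcomere genes, 0.0839 with GC offsets and 0.0552 with only genes that no other gene covers. Mylk3, Myoz2 and Cmya5, which fell in LIN9 KO Sav1 wt, did not pass in double KO ventricles (-0.26, -0.25 and -0.50), and Csrp3 fell (log2 fold change -0.36, SE 0.10, adjusted p = 0.00713). Whether Mylk3, Myoz2 and Cmya5 passed depended on the setting, whereas Csrp3 passed in 23 of 23 alternatives. Des passed without replicate 1 or replicate 3 of LIN9 KO Sav1 wt (adjusted p = 0.0471 and 0.0442). Mylk3 passed in 7 of 23, Myoz2 in 5 of 23 and Cmya5 in 7 of 22 alternatives, and with the replicate block Myoz2 had an adjusted p of 0.0464 and Cmya5 of 0.00261. The replicate number did not pair double KO with LIN9 wt Sav1 wt libraries. Without replicate 1 of LIN9 wt Sav1 wt and of LIN9 KO Sav1 wt, Cmya5 (-0.60, adjusted p = 0.00357) and Nexn (-0.79, adjusted p = 0.000916) passed. Against the same controls, summed markers in double KO libraries overlapped those of LIN9 KO Sav1 wt libraries for erythroid and fibroblast genes, and were higher for macrophage and lower for epicardial genes, where they stood at 508 to 555 against 565 to 633 CPM. Of the tested genes, 9 of 14 erythroid, 8 of 9 fibroblast and cushion mesenchyme, 6 of 8 epicardial and 6 of 8 macrophage genes were higher than in LIN9 wt Sav1 wt libraries, and 3 of 11 cardiomyocyte transcription factor genes were lower. Atrial cardiomyocyte sums were higher without overlap (3840 to 4480 against 3138.5 to 3609 CPM), with 2 of 10 genes higher and 0 lower. The part of these marker shifts in the differences was not tested.

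The interaction of both deletions, which is the Sav1 effect with LIN9 KO minus that with LIN9 wt, called 0 members and 0% of all genes with edgeR (1156 genes at an unadjusted p under 0.05). DESeq2 likewise called 0 members. At an unadjusted p under 0.05 stood Trim63 (log2 difference -0.40, SE 0.14, adjusted p = 0.678) and Des (log2 difference -0.32, SE 0.15, adjusted p = 0.76). The calls for Des and Csrp3 in the Sav1 KO background and not with wild-type Sav1 are therefore not shown to differ between backgrounds.

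**Figure D5:**
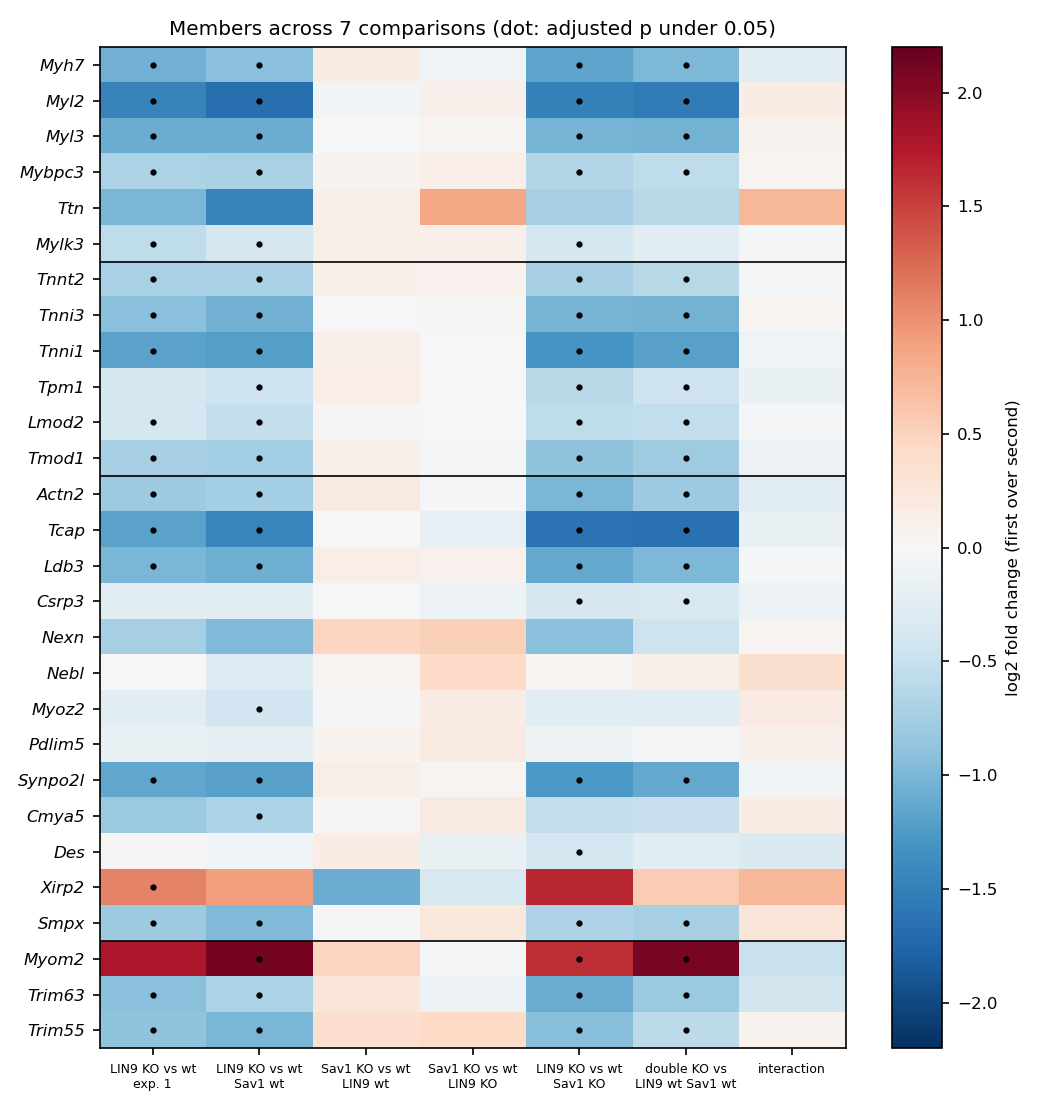
Log2 fold change (color, blue lower and red higher in the first-named group) of the 28 tested members (vertical axis) in the 7 comparisons (horizontal axis), with a dot where the adjusted p was under 0.05. The 4 columns that contrast LIN9 KO or double KO with LIN9 wt are mostly blue with dots, and the Sav1 and interaction columns hold no dot.

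A second list of 64 further sarcomere and Z-disc genes, of which 61 and 58 could be tested, gave a mixed picture. In LIN9 KO ventricles 25 fell and 7 rose in the first experiment, where 9.78% of all genes were called lower and 11.1% higher, and 22 fell and 9 rose in the second, where 10.5% were lower and 12.8% higher. The medians were -0.10 and -0.13. In both experiments 21 genes fell and 4 rose, which is 21 of 25 and 21 of 22 of the genes that fell. The lowest were Ky, the kyphoscoliosis peptidase (log2 fold change -3.78, SE 0.24, adjusted p = 1.65e-07 and log2 fold change -2.84, SE 0.35, adjusted p = 6.83e-07), the slow myosin heavy chain gene Myh7b (-1.90 and -1.49), the slow skeletal troponin T gene Tnnt1 (-1.75 and -1.76) and Nrap, a protein of assembling myofibrils (-1.33 and -1.49), joined by Klhl40 in the first (-1.39) and Sorbs2 in the second experiment (-1.36). The genes that rose in both were the fast skeletal troponin T gene Tnnt3 (log2 fold change 3.01, SE 0.64, adjusted p = 0.0288 and log2 fold change 2.56, SE 0.32, adjusted p = 1.28e-06), the smooth muscle leiomodin Lmod1 (1.70 and 1.52), the smooth muscle myosin kinase Mylk (0.83 and 0.80) and the actin-binding gene Ablim1 (0.55 and 0.77). Pdlim3 was among the 5 highest in the first (0.73), and Myh3, Mybphl and Trim54 in the second experiment (3.18, 1.66 and 1.17). Smooth muscle markers summed to 1976 to 2351 CPM in LIN9 wt and 2531 to 2900.3 CPM in LIN9 KO libraries of the first experiment, but overlapped in the second (2026 to 2132 against 1943 to 2447 CPM). Skeletal muscle markers summed to 38.4 to 40.8 against 40.7 to 71.4 CPM and to 29.5 to 41.6 against 48.5 to 54.1 CPM, with Myf5 at 0 in both experiments and Tnnc2 at 0 in the second, and their part in the rise of Tnnt3 was not tested. In the Sav1 comparisons 0 of these genes passed the threshold in either background, where edgeR gave 5 and 7 at an unadjusted p under 0.05, beside 693 and 2093 of all 17675 genes.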

How the data were processed

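Poly(A) RNA of mouse ventricles was sequenced in 18 libraries, which were grouped by the genotype in the sample labels. The values are raw read counts per Ensembl gene. To make these counts, the authors mapped reads with TopHat2 (2.1.0) and Bowtie2 to mm10, scaled every sample down to the one with the fewest mapped reads, and counted with summarizeOverlaps. How reads in overlapping genes and strand were handled is not given in the sources used here. The 4 ChIP-seq samples of the series were not analysed here.

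Repeated identifiers (4 in each table) were kept once, and 0 columns of sample values were left unused. Genes with a mean count above 1 (19752 and 17675) were normalized by TMM and tested with the robust quasi-likelihood test of edgeR (4.0.16, limma 3.58.1, R 4.3.3). The first experiment used 6 libraries, and the second used all 12 in a single fit with contrasts. P-values were adjusted by Benjamini-Hochberg at a threshold of 0.05. CPM refer to TMM-scaled library sizes. No 2 libraries held identical counts. The fits were tested on simulated data. There 67, 67 and 66 genes were changed by 1.5, 2 and 4 times, and the spread of each gene followed the trend with its level. For LIN9 in the first experiment, 49.3% of 1.5-fold, 76.1% of 2-fold and 97% of 4-fold changes were recovered. With wild-type Sav1 in the second, these shares were 40.3%, 82.1% and 97%. In the data many more genes were called (20.9% and 23.2%) and some genes spread more widely than the trend. The recovered shares therefore need not hold for the fits of the data.

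The 33 members and all gene lists were chosen with earlier results of these data known. Fold changes are printed for up to 3 highest and 3 lowest members per compartment among those past the threshold, for members called in the other comparisons and, chosen after their values were seen, for members that did not pass. Alternatives covered DESeq2 (1.42.0), filters, scaling, replicates left out and the replicate number as a block. The labels state no pairing, which was judged only from correlations of deviations between libraries of the same replicate number. LIN9 wt Sav1 wt and LIN9 KO Sav1 wt libraries were treated as paired (0.257 to 0.634 over 3 pairs). Both replicate 1 libraries of these genotypes shared the tilt in GC content. The genotypes of the first experiment (0.0576 to 0.286) and LIN9 wt Sav1 wt with Sav1 KO libraries (0.0996 to 0.327) were not treated as paired. LIN9 KO Sav1 wt and Sav1 KO libraries were, at 0.115 to 0.356, a range that overlaps those of unpaired genotypes. Double KO libraries were not paired with LIN9 wt Sav1 wt (-0.0998 to 0.0717), LIN9 KO Sav1 wt (-0.102 to 0.158) or Sav1 KO libraries (-0.0654 to -0.0194).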

Additional observations from a re-analysis of the deposited data

Results flagged for a closer look

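The effect of Sav1 deletion on Trim63, the gene of the ubiquitin ligase MuRF1, had opposite signs in the 2 LIN9 backgrounds, without passing the test in either. With LIN9 wt, all 3 Sav1 KO libraries (176, 171 and 176 CPM) were above all 3 LIN9 wt Sav1 wt libraries (155, 145 and 135 CPM). With LIN9 KO, all 3 double KO libraries (75.7, 85.6 and 84.7 CPM) were below all 3 LIN9 KO Sav1 wt libraries (97.3, 85.9 and 86.5 CPM), the nearest pair at 85.6 and 85.9 CPM. The log2 fold change was 0.27 (SE 0.10) with LIN9 wt and -0.13 (SE 0.10, edgeR unadjusted p = 0.206) with LIN9 KO. The interaction term in edgeR was -0.40 on the log2 scale (SE 0.14, unadjusted p = 0.009), and its adjusted p of 0.678 over all genes did not pass the threshold, so the difference between backgrounds is reported as a value and not as a call. With 3 libraries per genotype, outlying single values within a genotype were not tested, and single libraries were only left out in turn.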

How the results depend on the processing

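For LIN9 in its 3 comparisons and for double KO, of 2337 recomputed fold changes of single members, 2224 kept their direction and their side of the threshold, 81 newly passed it, 21 no longer passed and 11 changed sign. With each replicate left out in turn, called members numbered 16 to 23 for LIN9 in the first experiment, 20 to 23 in the second with wild-type Sav1, 21 to 22 in the Sav1 KO background, 18 to 23 for double KO, and 0 for both Sav1 comparisons and the interaction. Under the other alternatives these counts were 13 to 21, 16 to 23, 15 to 24 and 14 to 22 for the LIN9 and double KO comparisons in that order, 0 to 1 for Sav1 with LIN9 KO, and 0 for Sav1 with LIN9 wt and the interaction. The lowest counts for LIN9 and double KO came with only genes that no other gene covers. There, partly covered members such as Myl2, Myl3, Myh7, Tnni3 and Tmod1 were not tested, and the only call lost was Trim55 for double KO. The median log2 fold change, with replicates left out, ran from -0.93 (without LIN9 KO replicate 2) to -0.66 for LIN9 in the first experiment, from -0.83 to -0.68 in the Sav1 KO background, from -0.72 to -0.55 for double KO, and from -0.0013 to 0.103 for Sav1 with LIN9 KO, where leaving out double KO replicate 3 turned the sign. Without both libraries that stood apart in GC content, chosen after seeing the data, it was -0.80 for LIN9 with wild-type Sav1 and -0.72 for double KO, and with only genes that no other gene covers, -0.67 for LIN9 in the Sav1 KO background. As shares of raw counts, the Myh7 differences were -8.83, -7.82, -7.98 and -7.74 percentage points for LIN9 in the first experiment, LIN9 with wild-type Sav1, LIN9 with Sav1 KO and double KO. The cause of these shifts was not tested.

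With the replicate number as a block, called members numbered 21 in the first and 23 in the second LIN9 comparison, 22 in the Sav1 KO background, 21 for double KO, and 1 (Trim55) for Sav1 with LIN9 KO, which is also the count without a filter on low counts and with block and GC offsets together. The latter gave a double KO median of -0.52. The block moved no other count by over 1.5 times, and in the second LIN9 comparison the 2 added calls were Ttn and Csrp3.

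Members near 0 changed sign with replicates left out. Des ran from -0.063 to 0.134 in the first and from -0.223 to 0.017 in the second LIN9 comparison, Pdlim5 from -0.109 to 0.022 for double KO, and Nebl from -0.24 to 0.26, from -0.609 to 0.072, from -0.067 to 0.143 in the Sav1 KO background and from -0.17 to 0.31 for double KO (-0.17 without both GC-tilted libraries). The shares of Acta1 were not run, since both actin genes had no count. At the depth of the second experiment, Xirp2 and Myom2 rest on few reads.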
